A study of Homo sapiens with 6 samples.

Results

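The nuclear genes for the subunits of the respiratory chain and ATP synthase were described in Huh-7 cells given pectolinarigenin. Huh-7 is a cell line from a human liver tumour with many hepatocyte features, and pectolinarigenin is a flavone made by plants. Members were picked by gene symbol alone, as NDUFA, NDUFAB, NDUFB, NDUFC, NDUFS and NDUFV genes for complex I, SDHA to SDHD for complex II, UQCR genes for complex III, COX4 to COX8 genes for complex IV and ATP5F1, ATP5M and ATP5P genes for complex V. Pseudogenes were left out. The pattern found 84 genes among the 60605 identifiers of the table: 38 for complex I, 4 for complex II, 8 for complex III, 16 for complex IV and 18 for complex V. NDUFA4 fits the complex I pattern by its name but is a subunit of complex IV, and it is counted here by its name. CYC1, the cytochrome c1 subunit of complex III, lies outside the pattern.

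The 3 treated libraries came from Huh-7 cells loaded with 100 µM oleic acid for 24 h, starved, and given 100 µM pectolinarigenin for 24 h. The 3 control libraries came from the same cells with the same oleic acid load and starvation, given 0 µM pectolinarigenin with DMSO as vehicle. The oleic acid load was therefore shared by both groups, and no unloaded cells were compared. Huh-7 is an established tumour line, so the values describe 1 line and not liver tissue. Nothing in the labels says that the 3 libraries of a group were separate cultures. The p-values therefore measure the spread between libraries alone, and that spread may be technical.

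In oxidative phosphorylation, complexes I and II take electrons from NADH and succinate and pass them through coenzyme Q to complex III, and cytochrome c carries them on to complex IV, where oxygen is reduced to water. Complexes I, III and IV pump protons across the inner mitochondrial membrane, and ATP synthase, complex V, uses the return of protons to make ATP. Mitochondrial DNA encodes part of the subunits of every complex except complex II, which is wholly nuclear-encoded. In liver cells the chain takes up the electrons from fatty acid oxidation and the citric acid cycle.

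The promoters of a few members are shown because they carry, or lack, the motifs of the factors NRF1, GABP (an ETS factor) and YY1, which are known regulators of respiratory genes. They are the reference sequence from RefSeq (GRCh38.p14), read 5′ to 3′ on the strand of the gene from 250 bases before the start to 30 bases after it, with motif matches in capitals. ATP5MC1 had the largest fall of all tested members and none of the 3 motifs (chr17:48892537-48892816, + strand). NDUFS1, not shown, fell too and held an ETS match. A link between motif and change was not tested. SDHB rose and held an ETS match that begins at -128 and a YY1 match at 11 bases after the start (chr1:17054003-17054282, - strand). SDHD was not past the test and held an NRF1 match at -110 and an ETS match, written on the opposite strand, at -77 (chr11:112086623-112086902, + strand).
ATP5MC1: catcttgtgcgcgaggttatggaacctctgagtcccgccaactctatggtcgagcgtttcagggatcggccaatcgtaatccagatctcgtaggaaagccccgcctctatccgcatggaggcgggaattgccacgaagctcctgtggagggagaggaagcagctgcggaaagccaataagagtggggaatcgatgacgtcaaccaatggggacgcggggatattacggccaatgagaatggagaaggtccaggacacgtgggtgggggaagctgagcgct
SDHB: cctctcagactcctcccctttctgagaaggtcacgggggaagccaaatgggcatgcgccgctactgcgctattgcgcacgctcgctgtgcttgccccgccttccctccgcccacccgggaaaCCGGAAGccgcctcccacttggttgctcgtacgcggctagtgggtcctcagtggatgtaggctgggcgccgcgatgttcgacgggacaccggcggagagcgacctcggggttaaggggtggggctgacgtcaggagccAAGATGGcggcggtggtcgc
SDHD: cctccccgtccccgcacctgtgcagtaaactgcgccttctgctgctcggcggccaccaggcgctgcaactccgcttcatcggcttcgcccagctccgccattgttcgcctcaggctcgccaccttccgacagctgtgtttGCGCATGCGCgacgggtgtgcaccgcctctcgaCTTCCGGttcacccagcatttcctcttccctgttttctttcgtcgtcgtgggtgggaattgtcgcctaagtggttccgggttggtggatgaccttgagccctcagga

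RefSeq promoters were found for 68 of the 84 members, 64 of them among tested genes, and were searched on both strands from 250 bases before to 50 after the start. The NRF1 motif (GCGCA, any base, then GCGC) was in 16 of the 64 tested members with a promoter (25%), against 12.7% of the promoters of all tested genes and 6.28% of all 27305 promoters. The YY1 motif (AAGATGG) was also in 16 (25%), against 8.07% and 6.06%. The ETS motif (CCGGAAG) was in 20 (31.2%), against 21.2% and 10.7%, and the SP1 motif (GGGCGGG) in 19 (29.7%), against 54.3% and 32.9%. The test of expression (edgeR, adjusted p under 0.05) was passed by 2 of the 20 members with an ETS match: NDUFS1, which fell, and SDHB, which rose. Of the 16 with a YY1 match 3 passed (NDUFA6, NDUFS7 and SDHB), and all rose. Of the 19 with an SP1 match 2 passed (COX5A and NDUFA6), and both rose. Of the 16 with an NRF1 match 0 passed. Among the members with an NRF1 match 0 had an unadjusted p under 0.05 and 0 passed in DESeq2. For comparison, 15.6% of all tested members and 50.6% of all tested genes passed, and the differences between motifs were not tested. A match describes letters in the window and not binding.

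Total counts per library were 16054283, 16297404 and 20311261 in the treated group and 18619775, 18652800 and 15140022 in the control group. All 9 hepatocyte lineage markers, among them ALB, AFP and HNF4A, were above 1 FPKM in every library, with sums of 9017 to 9813 FPKM in treated libraries and 12464 to 12654 FPKM in control libraries. Markers of other cell types were near 0: 3 endothelial genes summed to 1.16 to 1.37 FPKM in treated and 2.32 to 2.63 FPKM in control libraries, 3 leukocyte genes to 1.89 to 2.06 FPKM in treated and 2.64 to 3.52 FPKM in control libraries, and 3 fibroblast genes to 0.1 to 0.14 FPKM in treated and 0.35 to 0.49 FPKM in control libraries. PECAM1 and CD14 made up nearly all of the endothelial and leukocyte sums, DCN had 0 counts in every library, and CDH5, PTPRC and CD3E had at most 3 counts in any. The part of these marker levels in the results was not tested. Treated libraries differed among themselves more than control libraries did, with a chi-square statistic per degree of freedom of 5.4 to 13.9 between treated and 1.61 to 3.16 between control libraries.

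Few of the respiratory subunits passed the test. Of 77 members with a mean of at least 1 FPKM (fragments scaled to gene length and library total), 12 passed the test at an adjusted p under 0.05 (edgeR quasi-likelihood test, Benjamini-Hochberg over 12829 genes). That is 15.6% of the tested members, against 50.6% of all genes tested. The 5 that rose were NDUFA6, NDUFC2, NDUFS7, SDHB and COX5A, where the share of all tested genes that rose was 25.3%. The 7 that fell were NDUFA4, NDUFC1, NDUFS1, SDHC, COX7B, ATP5F1B and ATP5MC1, against 25.3% of all genes. None of the 12 reached 1.5-fold, while 13.3% of all tested genes passed with a change of at least 1.5-fold. The RNA came from bulk cultures, in which fewer cells of a kind and less RNA per cell cannot be told apart.

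The members' median log2 fold change was -0.0086, and that of all tested genes was 0.00071. The median size of the change regardless of sign was 0.09 for the members and 0.25 for all genes. In 26 of the 77 members (33.8%) the treated and control values did not overlap, against 59.2% of all tested genes. The 95% interval of the fold change lay within 1.5-fold in either direction for 75 of the 77 members, against 64.5% of all tested genes. The exceptions were ATP5MC1, which fell, and NDUFA7, a complex I accessory subunit with the lowest level of the tested members, at a mean of 2.34 FPKM. The 65 members not past the test had log2 fold changes of -0.16 to 0.24 with SEs of 0.051 to 0.18. NDUFC2 was just inside the threshold (adjusted p = 0.045) and the complex I subunit NDUFB5 just outside (adjusted p = 0.0593, edgeR).

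**Figure D1:**
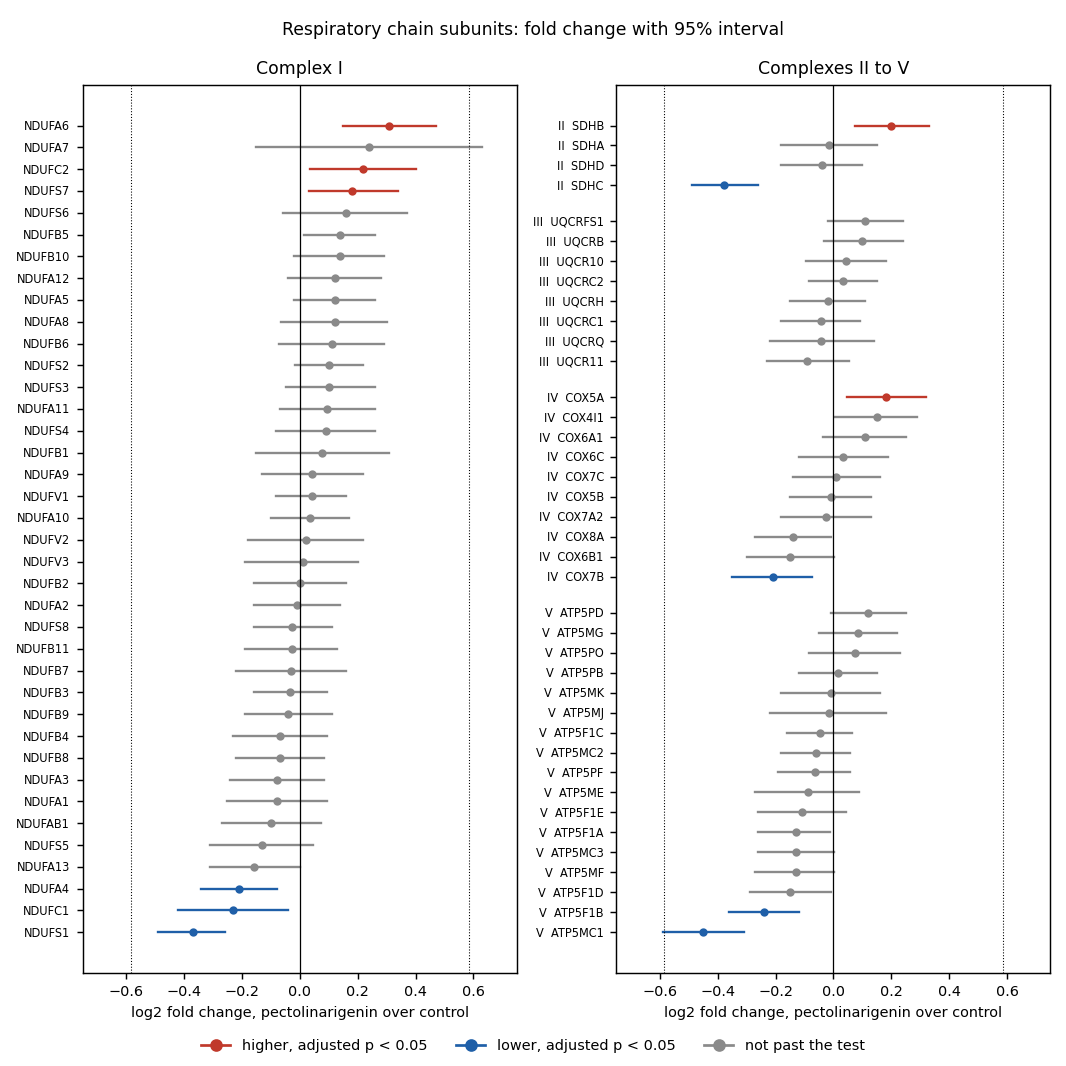
Log2 fold change of each tested subunit, pectolinarigenin over control, with its 95% interval (lines) from the edgeR fit, for complex I on the left and complexes II to V on the right. Dotted lines mark 1.5-fold; 5 members passed the test above 0 and 7 below it, and most intervals cross 0.

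The number of calls depended on single libraries. Without treated library 1, 15 members were higher and 6 lower, and without treated library 3, 3 were higher and 21 lower. Without treated library 2 the numbers were 2 and 5, without control library 1 they were 3 and 6, without control library 2 they were 2 and 7, and without control library 3 they were 2 and 5. The 7 members called in every one of 16 alternative settings were NDUFA6, SDHB, NDUFA4, NDUFS1, SDHC, ATP5F1B and ATP5MC1. NDUFC1, NDUFC2 and NDUFS7 passed in 6, 8 and 8 of the 16, COX5A in 12 and COX7B in 14.

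Complex I takes electrons from NADH and is the largest complex of the chain. Of its 38 members, 3 rose and 3 fell, so that 15.8% passed, against 50.6% of all tested genes. The median log2 fold change of the 38 was 0.029. NDUFS1, the largest iron-sulfur subunit of the NADH-oxidising arm (ENSG00000023228, chromosome 2, 206114817 to 206159603), had 41.7, 38.5 and 38.2 FPKM in treated libraries and 50.2, 50.0 and 49.3 FPKM in control libraries. Every treated value was below every control value. The log2 fold change was -0.37 (SE 0.055, adjusted p = 5.13e-05, edgeR). NDUFA6, an accessory subunit that binds the mitochondrial acyl carrier protein (ENSG00000184983, chromosome 22, 42085525 to 42090955), had 32.7, 33.4 and 37.8 FPKM in treated libraries and 26.5, 27.8 and 27.7 FPKM in control libraries. All 3 treated values were above the controls, with treated library 3 highest. The log2 fold change was 0.31 (SE 0.075, adjusted p = 0.00302, edgeR).

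NDUFV1, the subunit that binds NADH and the flavin, did not pass, with 84.7, 89.7 and 90.7 FPKM in treated libraries and 79.7, 83.6 and 87.7 FPKM in control libraries (log2 fold change 0.042, 95% interval -0.081 to 0.16). Within libraries, the NDUFS1 level was 0.492, 0.429 and 0.421 of the NDUFV1 level in treated cells and 0.63, 0.598 and 0.562 of it in control cells. The ratio of these neighbouring core subunits was thus lower in every treated library than in any control library. NDUFS1 alone had that order and NDUFV1 did not pass, so the order of the ratio is no separate result. The ratio of NDUFS1 to NDUFA6 was 1.27, 1.15 and 1.01 in treated and 1.89, 1.8 and 1.78 in control libraries. NDUFS1 was lower and NDUFA6 higher in every treated library, so the order of this ratio is no separate result.

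In the proximal membrane arm of complex I a pair of accessory subunits moved in opposite directions. NDUFC1 (ENSG00000109390, chromosome 4, 139266880 to 139302551) had 6.84, 7.93 and 8.19 FPKM in treated libraries and 9.04, 8.25 and 8.98 FPKM in control libraries. NDUFC2 (ENSG00000151366, chromosome 11, 78068304 to 78080219) had 15.4, 17.3 and 19.2 FPKM in treated libraries and 15.2, 13.9 and 14.5 FPKM in control libraries. The groups did not overlap for either gene, but treated library 3 in NDUFC1 and treated library 1 in NDUFC2 were close to the controls. The log2 fold change was -0.23 for NDUFC1 (SE 0.088, adjusted p = 0.0425) and 0.22 for NDUFC2 (SE 0.086, adjusted p = 0.045), by edgeR. NDUFC1 lost its call without treated library 1 or 2 or control library 1 or 3 (adjusted p = 0.153, 0.0601, 0.135 and 0.119, edgeR), and in DESeq2 (0.068). NDUFC2 lost it without any library other than treated library 1, with a log2 fold change of 0.13 without treated library 3 (adjusted p = 0.173, edgeR).

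NDUFS7, which holds the iron-sulfur cluster that hands electrons to coenzyme Q (ENSG00000115286, chromosome 19, 1383527 to 1395589), had 6.06, 6.86 and 6.87 FPKM in treated libraries and 5.37, 5.84 and 5.78 FPKM in control libraries. The groups did not overlap, with the log2 fold change at 0.18 (SE 0.072, adjusted p = 0.0433, edgeR). It lost its call without any library other than treated library 1 (adjusted p from 0.0714 to 0.157 in the other 5). An antisense gene, AC005329.1, covers 35.7% of the exon bases of NDUFS7 and held 414 counts over the 6 libraries against 4809, and whether counting used strand is, in the sources used here, not given. The complex I member of highest level was NDUFS5, an accessory subunit on the intermembrane space side, with 161, 164 and 205 FPKM in treated libraries and 178, 193 and 198 FPKM in control libraries. Treated library 3 was above all controls and the other treated libraries below them (log2 fold change -0.13, 95% interval -0.31 to 0.046). By module, 1 of 10 members of the NADH-oxidising arm rose and 1 fell, and 1 of 6 of the coenzyme Q arm rose. In the proximal membrane arm 1 of 9 rose and 1 fell, and in the distal membrane arm 0 of 12 passed the edgeR test. Among all tested genes 25.3% rose and 25.3% fell. In the distal arm 1 member, NDUFB5, was at an unadjusted p under 0.05. For complex I as a whole, 7 members rose without treated library 1 and 7 fell without treated library 3.

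Complex II, succinate dehydrogenase, links the citric acid cycle to the chain and has 4 subunits. Of these 1 rose and 1 fell, so that 50% passed, close to the 50.6% of all tested genes. The iron-sulfur subunit and a membrane anchor changed in opposite directions. SDHC, which anchors the enzyme in the membrane and helps form the coenzyme Q site (ENSG00000143252, chromosome 1, 161314257 to 161375340), had 40.8, 40.3 and 40.6 FPKM in treated libraries and 50.7, 50.9 and 52.5 FPKM in control libraries. The treated libraries lay close together and well below the controls, with the log2 fold change at -0.38 (SE 0.054, adjusted p = 3.97e-05, edgeR). SDHB, the iron-sulfur subunit (ENSG00000117118, chromosome 1, 17018722 to 17054170), had 29.03, 31.4 and 31.9 FPKM in treated libraries and 25.6, 25.9 and 26.6 FPKM in control libraries. All treated values were above all controls, with the log2 fold change at 0.20 (SE 0.06, adjusted p = 0.0108, edgeR).

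The other two subunits did not pass. SDHA, the flavoprotein that oxidises succinate, had 3.57, 4.16 and 4.05 FPKM in treated libraries and 3.74, 3.76 and 4.11 FPKM in control libraries (log2 fold change -0.014, 95% interval -0.18 to 0.15). SDHD, the other anchor, had 23.4, 24.2 and 24.9 FPKM in treated libraries and 26.0, 23.1 and 23.5 FPKM in control libraries (log2 fold change -0.039, 95% interval -0.18 to 0.099). The level of SDHC was 1.41, 1.28 and 1.28 times that of SDHB in treated cells and 1.98, 1.97 and 1.97 times in control cells. The control ratios were nearly equal, and all treated ratios were lower. That order follows from the opposite changes of SDHC and SDHB given above and is no separate result. The SDHA level is uncertain, since 3 pseudogenes of SDHA held 2619 counts over the 6 libraries against 3588 for SDHA itself, and those of SDHD held 6.8% as many counts as SDHD.

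Complex III passes electrons from coenzyme Q to cytochrome c. None of its 8 members passed the edgeR test, 0 had an unadjusted p under 0.05 and 0 passed in DESeq2. Among all tested genes 50.6% passed in edgeR. Without treated library 1, 2 members were higher, and without treated library 3, 1 was lower. Log2 fold changes ran from -0.09 for UQCR11, a small accessory subunit, to 0.11 for UQCRFS1, the Rieske iron-sulfur protein (95% interval -0.02 to 0.24). UQCRH, the hinge protein next to cytochrome c1 and the member of highest level, had 74.3, 81.5 and 83.4 FPKM in treated libraries and 80.1, 76.3 and 79.6 FPKM in control libraries. The groups overlapped, and the log2 fold change was -0.018 (95% interval -0.15 to 0.11). The near-identical UQCRHL held 2194 counts over the 6 libraries against 11177 for UQCRH, so their division is uncertain. The core protein UQCRC2 had 29.4, 29.6 and 30.5 FPKM in treated libraries and 28.8, 28.8 and 27.7 FPKM in control libraries (log2 fold change 0.032, 95% interval -0.083 to 0.15). CYC1, outside the symbol pattern, had 62.2, 62.0 and 65.4 FPKM in treated libraries and 56.9, 61.9 and 62.0 FPKM in control libraries, and it did not pass either (log2 fold change 0.033).

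Complex IV, cytochrome c oxidase, reduces oxygen. Of its 10 tested members 1 rose and 1 fell, so that 20% passed, against 50.6% of all tested genes. NDUFA4, counted under complex I, fell too. Without treated library 1, 3 were higher and 1 lower, without treated library 3, 1 was higher and 4 lower, and without treated library 2 or control library 3 none passed. Without control library 1 or 2, 0 were higher and 1 was lower. COX5A, an accessory subunit on the matrix side (ENSG00000178741, chromosome 15, 74919791 to 74938168), had 117, 135 and 135 FPKM in treated libraries and 109, 112 and 112 FPKM in control libraries. Treated libraries 2 and 3 stood well above the controls and treated library 1 just above them. The log2 fold change was 0.18 (SE 0.064, adjusted p = 0.0272, edgeR). COX7B, a small membrane-spanning subunit (ENSG00000131174, chromosome X, 77899438 to 77907373), had 24.2, 23.8 and 27.2 FPKM in treated libraries and 27.5, 28.4 and 29.1 FPKM in control libraries. The groups did not overlap, with treated library 3 nearest the controls, and the log2 fold change was -0.21 (SE 0.065, adjusted p = 0.0134, edgeR). COX5A lost its call without treated library 2 (adjusted p = 0.0983) or control library 1, 2 or 3 (0.0917, 0.0749 and 0.074), and COX7B without treated library 2 (0.064) or control library 3 (0.061), by edgeR.

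NDUFA4 (ENSG00000189043, chromosome 7, 10931951 to 10940256) had 36.6, 37.96 and 41.6 FPKM in treated libraries and 43.1, 44.2 and 43.7 FPKM in control libraries. All treated values were below all controls, with the log2 fold change at -0.21 (SE 0.061, adjusted p = 0.0101, edgeR). COX8A, the member of highest level in complex IV, had 155, 161 and 174 FPKM in treated libraries and 173, 178 and 175 FPKM in control libraries, with an overlap and an adjusted p of 0.0699 (edgeR; log2 fold change -0.14, 95% interval -0.27 to -0.009). The ratio of COX5A to COX7B was 4.84, 5.68 and 4.95 in treated and 3.95, 3.93 and 3.86 in control libraries. COX5A was higher and COX7B lower in every treated library, so the order of this ratio is no separate result.

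The isoforms of complex IV subunits known from muscle, lung or testis had at most a few counts in either group. COX4I2, COX6A2 and COX7B2 had 0 counts in every library. A count of 0 still allows a level of up to 0.148 to 0.198 CPM in a library, where CPM are counts relative to the library total, and this covers counting error only. COX6B2 had 1, 3 and 2 counts in treated libraries and 2, 5 and 4 in control libraries. COX7A1 had 1, 2 and 3 counts in treated and 3, 5 and 0 in control libraries, and COX8C had 1, 0 and 1 in treated and 0, 2 and 0 in control libraries. ATP5MGL, a close copy of ATP5MG, had 2, 0 and 0 counts in treated libraries and 0 in every control library. These 7 members were not tested. NDUFA4L2, a hypoxia-induced relative of NDUFA4 outside the pattern, had 20, 26 and 32 counts in treated libraries and 12, 8 and 10 in control libraries, and was under the limit for testing as well.

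Complex V is ATP synthase. Of its 17 tested members 0 rose and 2 fell, 13 had a log2 fold change below 0, and the median was -0.064. Among all 12829 tested genes 25.3% rose, 25.3% fell and 6408 had a log2 fold change below 0. Without TMM factors 1 member rose and 2 fell, and with a minimum of 5 FPKM 0 rose and 5 fell. ATP5MC1, which encodes the c subunit of the rotor ring (ENSG00000159199, chromosome 17, 48892765 to 48895871), had 19.3, 21.4 and 22.2 FPKM in treated libraries and 26.9, 28.95 and 27.9 FPKM in control libraries. The treated values were all below the controls, with the log2 fold change at -0.45 (SE 0.067, adjusted p = 6.13e-05, edgeR), or 0.732 of the control level. ATP5F1B, the catalytic beta subunit and the member with the highest level of all (ENSG00000110955, chromosome 12, 56638175 to 56646068), had 337, 366 and 368 FPKM in treated libraries and 403, 409 and 418 FPKM in control libraries. Again no value overlapped, and the log2 fold change was -0.24 (SE 0.057, adjusted p = 0.00284, edgeR).

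The genes ATP5MC1, ATP5MC2 and ATP5MC3 encode the same mature c subunit behind different import sequences. ATP5MC2 had 33.4, 36.1 and 35.5 FPKM in treated libraries and 35.7, 35.7 and 35.3 FPKM in control libraries, and did not pass (log2 fold change -0.06, 95% interval -0.18 to 0.057). ATP5MC3 had 65.9, 68.6 and 75.4 FPKM in treated libraries and 73.9, 74.7 and 75.1 FPKM in control libraries, and did not pass (log2 fold change -0.13, 95% interval -0.26 to 0.0022). ATP5MC1 gave 16.2%, 17% and 16.7% of their summed FPKM in treated libraries and 19.7%, 20.8% and 20.2% in control libraries. The sum was 119, 126 and 133 FPKM in treated and 137, 139 and 138 FPKM in control libraries, lower in every treated library.

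ATP5F1A, the alpha subunit that alternates with beta in the catalytic head, had 68.3, 72.9 and 74.6 FPKM in treated libraries and 78.1, 75.1 and 77.5 FPKM in control libraries. No value overlapped, but it did not pass (log2 fold change -0.13, adjusted p = 0.0617, edgeR). The ratio of ATP5F1B to ATP5F1A was 4.93, 5.02 and 4.93 in treated and 5.16, 5.45 and 5.39 in control libraries. ATP5F1C, the gamma subunit of the central stalk, varied little, with 70.1, 70.0 and 69.4 FPKM in treated libraries and 70.1, 70.8 and 69.7 FPKM in control libraries (log2 fold change -0.046, 95% interval -0.16 to 0.064). Without treated library 3, 8 of the 17 members of complex V were lower and 0 higher, and without treated library 1, 2 were lower and 2 higher.

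**Figure D2:**
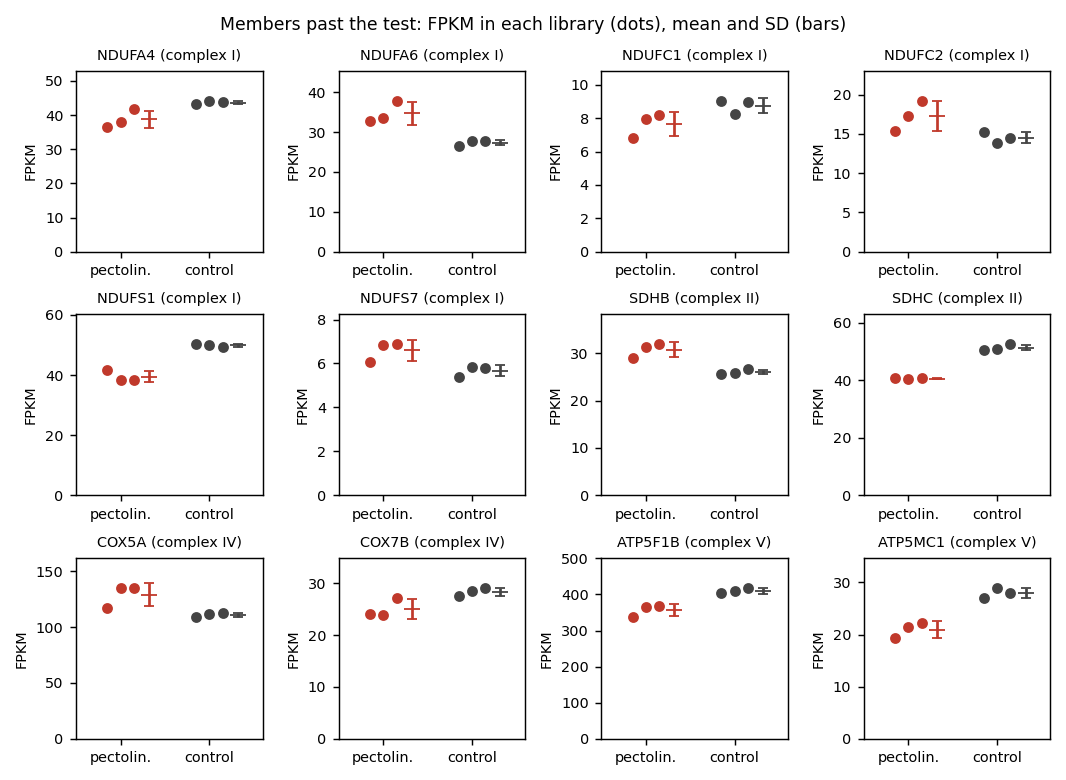
FPKM of the 12 members that passed the test, with treated libraries on the left of each panel and control libraries on the right; dots are libraries, the bar beside them the mean with its SD, and axes start at 0. The groups do not overlap in any panel, and the largest fold differences are those of ATP5MC1, SDHC and NDUFS1.

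Summed over the subunits, the levels of complexes I, III and IV were near the control level on average, with treated libraries spread on both sides of it. Complex I summed to 1153, 1235 and 1359 FPKM in treated libraries and 1208, 1257 and 1258 FPKM in control libraries. Complex III summed to 290, 307 and 323 FPKM in treated and 297, 296 and 303 FPKM in control libraries, and complex IV to 770, 845 and 903 FPKM in treated and 820, 820 and 829 FPKM in control libraries. In these 3 complexes treated library 1 lay below and treated library 3 above every control library. For complexes II and V all 3 treated sums were below the controls. Complex II summed to 96.8 to 101 FPKM in treated and 104 to 107 FPKM in control libraries. Complex V summed to 1014, 1101 and 1146 FPKM in treated and 1155, 1150 and 1166 FPKM in control libraries. Members of high level weigh most in these sums. SDHC averaged 40.6 FPKM in treated and 51.4 FPKM in control libraries, a wider gap than that of the complex II sums (99.4 and 105 FPKM). ATP5F1B averaged 357 and 410 FPKM, where the complex V sums averaged 1087 and 1157 FPKM. The lower sums alone therefore do not show whether a fall was shared by the subunits. In complex V 13 of 17 tested members had a log2 fold change below 0, and 2 of the 17 were called lower. In complex II 3 of 4 were below 0, and 1 was called lower. Among all 12829 tested genes 6408 were below 0. A shared fall was not tested. Over all complexes the sums averaged 3582 ± 255 FPKM in treated and 3625 ± 38.4 FPKM in control libraries (SD, n = 3 each).

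**Figure D3:**
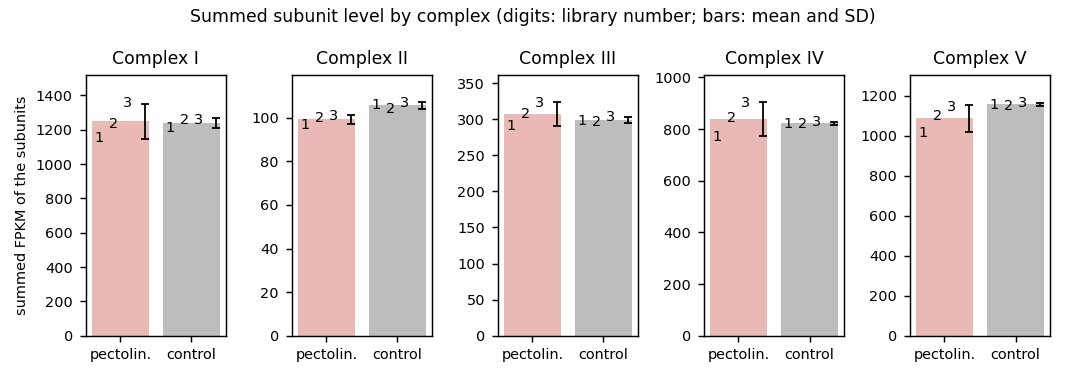
Summed FPKM of the subunits of each complex, with treated cells left of control cells; digits mark library numbers, columns the mean and the line beside them the SD of 3 libraries. Treated library 3 is above treated library 1 in every complex. The sums of complexes II and V are lower in all treated libraries, and their members of highest level, SDHC and ATP5F1B, both fell.

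Most subunits differed in the same direction between treated libraries. From treated library 1 to treated library 3 the median log2 ratio of the 77 members was 0.19, with 73 of them higher in library 3, while the median of all tested genes was -0.022. Treated library 2 was above treated library 1 in 69 members, with a median of 0.11. Between control libraries the members' medians were -0.00021 to 0.043. In 64 of 77 members treated library 3 was the highest of the treated libraries, in 69 treated library 1 was the lowest, and in 64 the SD was larger in treated than in control libraries. Against the control mean the members' median log2 ratio was -0.081, 0.047 and 0.12 in treated libraries and -0.019, -0.0033 and 0.017 in control libraries.

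The members are short genes in the files, with a median length of 2475 bases against 4573 bases for all tested genes. Over all tested genes, the median log2 ratio of treated library 3 to treated library 1 was -0.011 for genes under 1000 bases, 0.10 for 1000 to 2000 bases, 0.052 for 2000 to 4000 bases and -0.064 above 4000 bases, so it did not follow length in 1 direction. The part of gene length in the spread of the members was not tested. The members held 0.823%, 0.88% and 0.921% of all counts in treated libraries and 0.884%, 0.889% and 0.901% in control libraries.

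**Figure D4:**
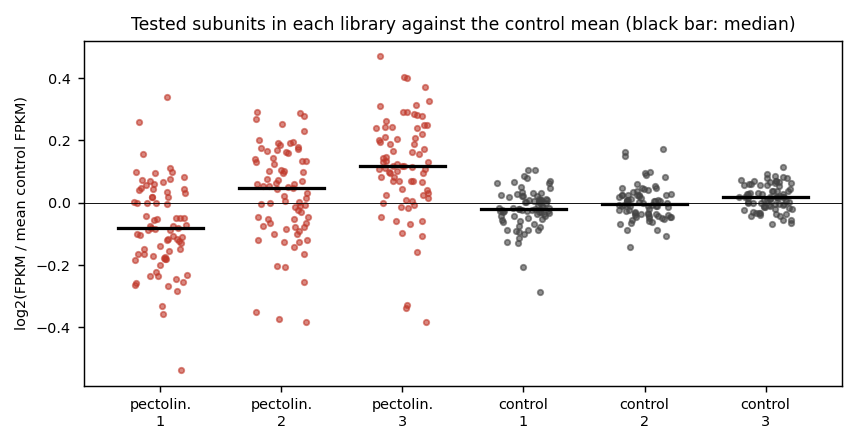
Log2 ratio of each of the 77 tested subunits to its mean control FPKM, by library, with treated libraries left of control libraries; each dot is 1 gene and the black bar the median. The medians are -0.081, 0.047 and 0.12 in treated libraries and lie within 0.019 of 0 in control libraries.

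The subunits encoded by mitochondrial DNA were set beside the nuclear ones. Of these 13 genes 1 rose and 4 fell, with a median log2 fold change of -0.093, so that 38.5% passed, against 50.6% of all tested genes. MT-ND5, a proton-pumping subunit of complex I, had 1247, 1145 and 1230 FPKM in treated libraries and 1613, 1598 and 1593 FPKM in control libraries. All treated values were lower, with the log2 fold change at -0.45 (SE 0.058, adjusted p = 1.71e-05, edgeR). MT-ND4, another pumping subunit, rose by 0.35 on the log2 scale (SE 0.10, adjusted p = 0.0101, edgeR; 0.0805 in DESeq2), with 4512, 4431 and 6203 FPKM in treated libraries and 3898, 3827 and 3839 FPKM in control libraries. Also among those that fell was MT-ATP8, a small subunit of complex V, at -0.39 (SE 0.12, adjusted p = 0.0165, edgeR), with an overlap, since treated library 3 was at 2631 FPKM and control libraries at 2368 to 2844 FPKM. MT-ATP8 lost its call without treated library 1 or 2 or control library 1 or 2 (adjusted p = 0.0638, 0.0809, 0.0712 and 0.0766, edgeR) and in DESeq2 (0.138). By position MT-ATP8 (8366 to 8572) overlaps MT-ATP6 (8527 to 9207), and MT-ND4 (10760 to 12137) overlaps MT-ND4L (10470 to 10766). MT-ATP6 did not pass (log2 fold change -0.08, adjusted p = 0.567, edgeR), nor did MT-ND4L (0.086, adjusted p = 0.496, edgeR). The part of these overlaps in the changes was not tested. Calls in this list depended on single libraries and on the tool. The 4 that fell became 8 without treated library 3 and 1 or 2 without any other library in turn. In DESeq2 3 fell, and in limma 1 fell.

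Assembly factors, which build the complexes without staying in them, were also counted. Of 55 tested, 16 rose and 6 fell, with a median log2 fold change of 0.13, so that 40% passed, against 15.6% of the subunits and 50.6% of all genes tested. For complex I 8 of 17 rose and 1 fell, with a median of 0.21. The 52.9% that passed is close to the 50.6% of all tested genes, of which 25.3% rose. NDUFAF4, an early assembly factor, had 11.8, 11.5 and 15.2 FPKM in treated libraries and 6.03, 6.33 and 5.91 FPKM in control libraries, well apart, with the log2 fold change at 1.05 (SE 0.11, adjusted p = 2.19e-06, edgeR). TMEM126B and TMEM186, which build the membrane arm, rose by 0.42 (SE 0.064) and 0.56 (SE 0.12) on the log2 scale. Without control library 1, control library 3 or treated library 3 the number that rose in this list was 4, 5 and 5.

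For complex III 4 of 6 rose and 0 fell, so that 66.7% passed, against 50.6% of all tested genes. Those that rose included UQCC3, which stabilises cytochrome b (0.66, SE 0.11), BCS1L, which inserts the Rieske protein (0.45, SE 0.078), and TTC19 (0.31, SE 0.063), all log2 fold changes. For complex IV 4 of 23 rose and 5 fell, so that 39.1% passed. Among these were COX18, which helps insert a mitochondrially encoded subunit, at -0.53 (SE 0.084), COX15, which makes haem A, at -0.33 (SE 0.057), and COA7 at 0.44 (SE 0.075). SCO2 was under the limit for testing, with 0.77, 0.71 and 1.18 FPKM in treated libraries and 1.4, 0.97 and 0.77 FPKM in control libraries. For complexes II and V, 0 of 4 and 0 of 5 passed in edgeR, with 0 and 2 at an unadjusted p under 0.05. Of 5 tested subunits and relatives outside the symbol pattern, HIGD1A, a small protein that associates with complex IV, rose by 0.41 (SE 0.07) on the log2 scale.

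Of 19 electron carriers and coenzyme Q enzymes 7 rose and 3 fell, with a median of 0.14, and the 52.6% that passed is close to the 50.6% of all tested genes. CYCS, the cytochrome c that links complexes III and IV, had 42.6, 43.3 and 50.2 FPKM in treated libraries and 31.99, 28.9 and 28.6 FPKM in control libraries. Its treated values were all higher, with the log2 fold change at 0.57 (SE 0.073, adjusted p = 1.63e-05, edgeR). COQ2, which joins the head and tail of coenzyme Q, rose by 0.61 (SE 0.094), and GPD2, which feeds electrons from glycerol 3-phosphate to coenzyme Q, fell by 0.58 on the log2 scale (SE 0.061).

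In the pyruvate dehydrogenase and citric acid cycle list, 1 of 17 rose and 6 fell, with a median of -0.10, so that 41.2% passed, against 50.6% of all tested genes. Without control library 2, 3 fell. IDH2, the mitochondrial NADP-dependent isocitrate dehydrogenase, had 16.2, 17.2 and 18.4 FPKM in treated libraries and 28.3, 28.97 and 30.7 FPKM in control libraries. The groups were far apart, with the log2 fold change at -0.80 (SE 0.066, adjusted p = 2.52e-07, edgeR). IDH3A, a subunit of the NAD-dependent enzyme, rose by 0.61 (SE 0.10), and fumarase, FH, fell by 0.26 (SE 0.056), both log2 fold changes. The FH reaction follows that of complex II in the cycle.

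Of 13 tested regulators of respiratory gene expression and mitochondrial DNA 8 rose and 2 fell, with a median of 0.29, so that 76.9% passed, against 50.6% of all tested genes. TWNK, the helicase of mitochondrial DNA, had 11.4, 10.1 and 13.3 FPKM in treated libraries and 5.82, 6.33 and 6.01 FPKM in control libraries, with no overlap and the log2 fold change at 0.90 (SE 0.096, adjusted p = 2.61e-06, edgeR). POLG, the polymerase of mitochondrial DNA, fell by 0.56 on the log2 scale (SE 0.077). Of the factors whose motifs were searched above, GABPA, the subunit of GABP that binds the ETS motif, did not pass, with 10.5, 10.4 and 10.4 FPKM in treated libraries and 11.5, 11.3 and 9.87 FPKM in control libraries (log2 fold change -0.10, SE 0.067, adjusted p = 0.214, edgeR). YY1 rose by 0.31 (SE 0.054, adjusted p = 0.000244), GABPB1, the partner of GABPA without a DNA-binding domain, by 0.32 (SE 0.082, adjusted p = 0.00487) and NRF1 by 0.23 (SE 0.091, adjusted p = 0.0493) on the log2 scale, in edgeR. NRF1 kept its call in 6 of 15 alternatives, with an adjusted p between 0.0228 and 0.181, and lost it without treated library 2 or 3 (0.0527 and 0.148) or control library 1, 2 or 3 (0.0509, 0.114 and 0.181). TFAM, which packages and transcribes mitochondrial DNA, did not pass (log2 fold change -0.037, SE 0.058), with 21.4, 20.3 and 20.7 FPKM in treated libraries and 21.8, 19.8 and 20.8 FPKM in control libraries. PPARGC1A, a coactivator of respiratory genes, was at 0.19 to 0.3 FPKM in treated and 0.2 to 0.24 FPKM in control libraries and was not tested, and ESRRG had 0 counts in every library.

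**Figure D5:**
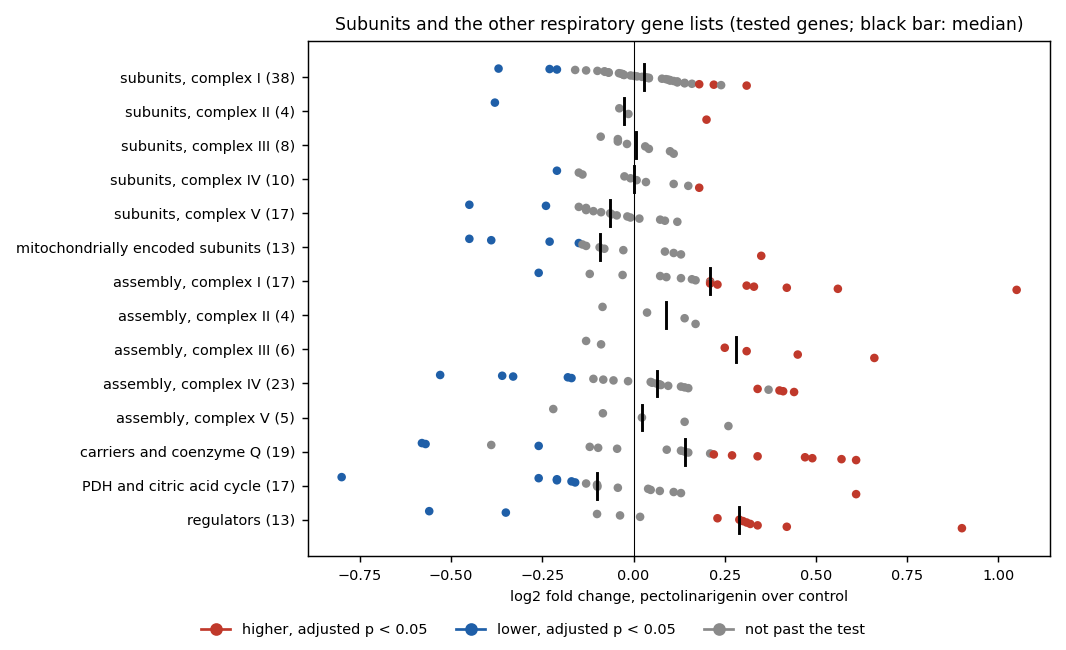
Log2 fold change, pectolinarigenin over control, of each tested gene (dots) by list, with the number tested in brackets; red genes rose, blue genes fell and grey genes did not pass, and the black bar is the median. The subunits of complexes I to V lie close to 0, and the medians of the assembly factors of complexes I and III and of the regulators are 0.21, 0.28 and 0.29.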

How the data were processed

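The 6 libraries were made from total RNA of Huh-7 cells with a VAHTS Universal kit and sequenced, per the labels' protocols. The authors' deposited table gave, per gene and library, raw counts of reads, which were not normalized, and FPKM values. The authors used cutadapt 1.9.1, HISAT2 2.0.1, HTSeq 0.6.1 and the build GRCh38, per the submitters' processing notes, while the annotation release, the use of strand and the handling of multiply matching reads were not given in the sources used here. Deposited FPKM follow library totals, while the tests used TMM factors (0.9835 to 1.02), so the median log2 ratio of all genes was 0.038 without TMM factors and 0.00071 with them. FPKM are divided by gene length, so levels of different genes were compared in FPKM.

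Here, 12829 genes with a mean of at least 1 FPKM were tested on the deposited counts in edgeR 4.0.16 (R 4.3.3), with a 2-sided quasi-likelihood F-test between the 3 treated and 3 control libraries, no covariate, and Benjamini-Hochberg adjustment over all of them, at 0.05. The SE was the fold change divided by the root of F. The procedure was also run on simulated counts, with the same spread for every gene and both groups and few changed genes. In the real data treated libraries differed more and far more genes passed, so that run cannot show how the test does here. DESeq2 1.42.0, limma 3.58.1 on log2(FPKM + 1) or log2(FPKM + 0.1), other scalings and filters, a replicate block and leaving out each library were the alternatives. Total counts of 15140022 to 20311261 put 3 counts, the limit that a count of 0 allows, at 0.148 to 0.198 CPM, which covers counting error only.

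Members and lists were chosen with earlier results of these data known, so no p was computed for a list. Values per library are given for up to 4 called members of smallest p in each complex, the member of highest level, every complex II subunit and isoforms with any count. Of each other list up to 3 called genes of smallest p are named. NDUFC2, NDUFS7, NDUFB5, NDUFV1, NDUFA7, the members not past the test that are given beside a called partner, CYC1, TFAM, NRF1, GABPA and GABPB1 were added after their values were seen. Positions are from GENCODE 29 on GRCh38. Reads can be split or shared for genes with pseudogenes or overlapping genes: 20 of 77 tested members share at least 15% of their exon bases with another gene.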

Additional observations from a re-analysis of the deposited data

How the results depend on the processing

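The number of members called higher, 5, was 9 without TMM factors and in limma with either pseudocount, and 3 with upper quartile scaling, in DESeq2 and with a minimum of 5 FPKM. The number lower, 7, was 11 at that minimum, where 72 members were tested and 4098 genes in all were called, against 6486. Without single libraries the members called higher were 2 to 15, the members called lower 5 to 21, and all genes called 5292 to 6517. The share of members called was 9.09% to 31.2% over the 16 alternatives and below that of all genes tested (22.7% to 57.4%) in each. None of the 67 members and listed genes that were called changed sign in any of their 1059 values in the alternatives. Of 1576 values of the tested members and the named genes, 1393 kept their direction and their side of the threshold, 40 lost a call, 46 gained one and 97 moved with neither value called. The cause of these shifts was not tested.

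With a replicate block 6 members were higher and 8 lower, and 6540 genes were called in all. Whether same-numbered libraries were paired is not given in the labels. Their deviations correlated only weakly, at 0.037, 0.01 and 0.033, although each treated library correlated best with the control library of its own number. The 7 untested members had at most 5 counts in any library, and the interval of NDUFA7 reached 0.63 on the log2 scale.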
